A study of Mus musculus with 15 samples.

Results

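Cytosolic ribosomal proteins build both subunits of the ribosome that translates messenger RNA outside the mitochondria. The genes described here are those rows of the expression table whose symbol is Rpl or Rps with a number and at most 1 of the letters a, x, y or l (and a further number), together with Rplp0, Rplp1, Rplp2 and Rpsa, without the Rps6 kinases. They number 84 of 21110 rows, with 51 genes of the large (60S) and 33 of the small (40S) subunit. Ribosomal protein mRNAs are among the most abundant in any cell, and the proteins are made in equal amounts for assembly in the nucleolus. In mammals these mRNAs start with a run of pyrimidines, the 5' terminal oligopyrimidine or TOP element, through which mTOR and its target LARP1 adjust their translation and stability. Resting cells of the innate immune system, granulocytes above all, are known for low ribosome content, and lymphocytes make new ribosomes when they prepare to grow.

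RNA was sequenced from 3 kinds of lung cell of C57BL6/J mice, sorted by flow cytometry, in 15 libraries of 8 groups. Papain, a cysteine protease from papaya that provokes allergic airway inflammation, was given into the nose at 50 ug per mouse on 3 days, and naive mice did not receive it. Papain mice gave basophils (2 libraries), CD11c+ eosinophils (2), CD11c- eosinophils (2), 3'UTRKO natural helper cells (1) and other natural helper cells (2), and naive mice gave basophils, eosinophils and natural helper cells (2 each). Natural helper cells are innate lymphocytes of the lung that carry no antigen receptor and make type 2 cytokines, and the age of the mice is not given. The gene whose 3' untranslated region the 3'UTRKO label refers to is not named in the labels. Basophils were gated on FceR1 and CD49b without c-kit, eosinophils on SiglecF with low Gr1, and natural helper cells as lineage-negative cells with Thy1.2, IL7Ra and CD25. CD11c is the integrin alpha chain by which the eosinophils of papain mice were divided.

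Values are FPKM, fragments scaled to transcript length and to the mapped reads of the library, rounded to whole numbers. Levels of different genes are thus given per length. Many members have near-identical copies, described below, whose part in the levels of different members was not tested. Library totals ranged from 374841 to 570208 FPKM, with 9995 to 13049 genes above 0. Read depth is not known. The labels do not say whether replicate libraries came from separate animals, so the spread behind each p-value may be technical. Differences were tested as log2(FPKM + 1) in limma across 14257 genes, with Benjamini-Hochberg adjusted p under 0.05 as the threshold for a call. Mcpt8, Ccr3 and Gata3 were each highest in the cells of their label, and markers of other cells were present too. The basophil protease Mcpt8 was at 30 and 95 FPKM in papain and 824 and 252 FPKM in naive basophils, and at most 2 elsewhere. The eotaxin receptor Ccr3 was at 124 to 229 FPKM in the 6 eosinophil libraries and at most 9 elsewhere, while Epx, eosinophil peroxidase, was listed at 0 in 4 of those 6. Gata3, a transcription factor of natural helper cells, was at 168 to 273 FPKM in their 5 libraries and at most 7 elsewhere. The club cell gene Scgb1a1, a marker of airway epithelium, was above 0 in every library, at 87 to 32382 FPKM. The 9 B cell markers summed to 204 and 371 FPKM in naive basophils, 58 and 46 FPKM in naive eosinophils and 6 and 4 FPKM in naive natural helper cells. The 5 mast cell markers summed to 292 and 355 FPKM in naive basophils and 31 and 36 FPKM in naive eosinophils. The part of these markers in the comparisons of naive cells was not tested.

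Natural helper cells held the most ribosomal protein RNA, basophils less and eosinophils the least. In papain mice the 84 genes took 13.13% and 11.84% of the FPKM total in basophils, 10.28% and 11.52% in CD11c+ eosinophils, 8.915% and 10.77% in CD11c- eosinophils, 28.45% in the 3'UTRKO library and 22.83% and 22.9% in the other natural helper cells. In naive mice they took 15.48% and 14.44% in basophils, 9.679% and 8.415% in eosinophils and 23.96% and 29.42% in natural helper cells. The cell types did not overlap in this share, but CD11c+ papain eosinophil library 2, at 11.52%, came close to papain basophil library 2, at 11.84%. The median member stood at 670 and 557 FPKM in naive basophils, 344 and 324 FPKM in naive eosinophils and 1076 and 1321 FPKM in naive natural helper cells. Small RNA rows, mostly microRNA and small nucleolar RNA genes, took 6.77% to 26.0% of a library total, and with them left out the members' share ran from 9.026% in a naive eosinophil library to 38.25% in a naive natural helper cell library. In bulk RNA, fewer cells that express a gene and less of its RNA per cell cannot be told apart.

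**Figure D1:**
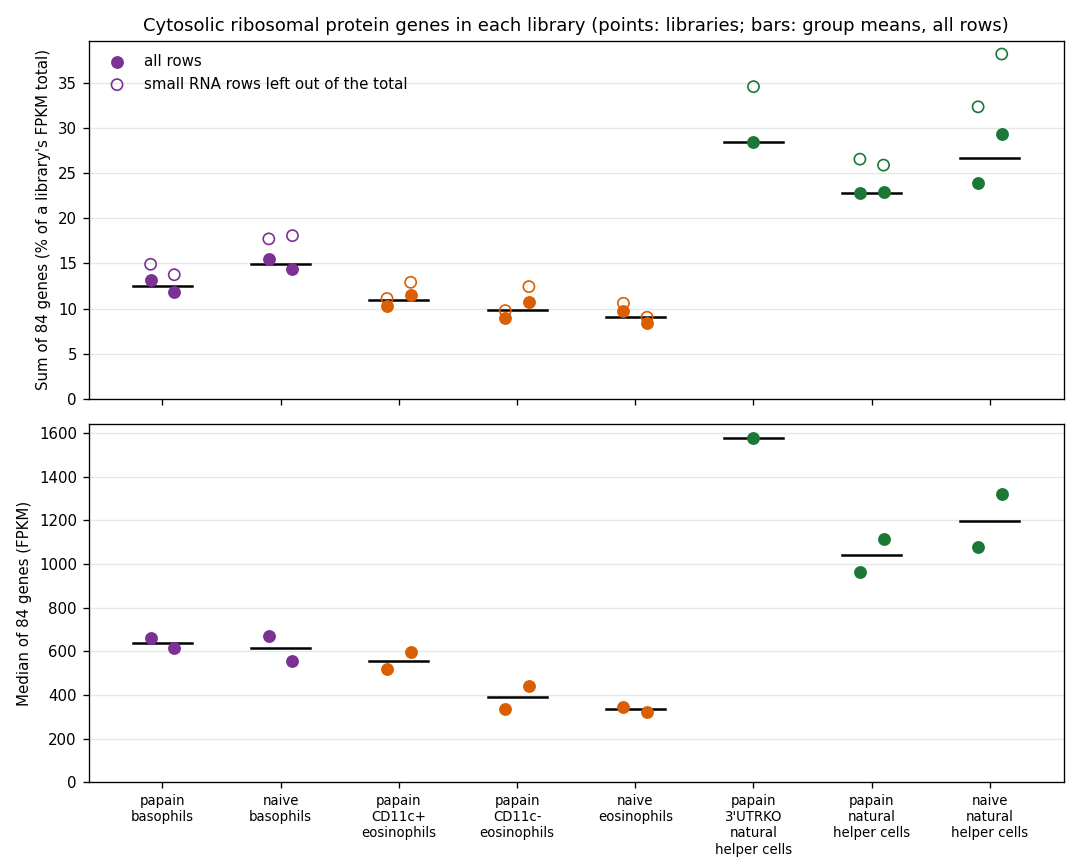
Share of each library's FPKM total in the 84 ribosomal protein genes (upper panel, percent) and their median FPKM (lower panel), by group. Filled points are libraries, black bars are group means of the filled points, and open points leave small RNA rows out of the total; natural helper cell libraries lie between 22.83% and 29.42%, above all basophil and eosinophil libraries.

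Both subunits contributed in like measure. In naive eosinophils the large subunit genes summed to 4.658% and 4.068% of the total and those of the small subunit to 5.02% and 4.347%. Large subunit genes summed to 12.47% and 15.78% in naive natural helper cells and small subunit genes to 11.49% and 13.64%. The most abundant gene by mean over the 15 libraries (2939 FPKM) was Rpl38, a large subunit protein required in mice for translation of Hox mRNAs. In papain mice it was at 2810 and 4396 FPKM in basophils, 1712 and 2129 FPKM in CD11c+ eosinophils, 1355 and 1582 FPKM in CD11c- eosinophils and 2943 and 3175 FPKM in natural helper cells. In naive mice Rpl38 was at 3490 and 3923 FPKM in basophils, 1813 and 1135 FPKM in eosinophils and 4043 and 6288 FPKM in natural helper cells. Basophils and natural helper cells overlapped in Rpl38, while eosinophils lay below both.

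Rplp1, which pairs with Rplp2 on the ribosomal stalk, was in papain mice at 1965 and 2587 FPKM in basophils, 1256 and 1531 FPKM in CD11c+ eosinophils, 809 and 1274 FPKM in CD11c- eosinophils and 3122 and 3456 FPKM in natural helper cells. Its values in naive mice were 2350 and 2219 FPKM in basophils, 927 and 714 FPKM in eosinophils and 4337 and 6095 FPKM in natural helper cells. The order of cell types was that of the members' median. Rps27, a zinc finger protein of the small subunit, was in papain mice at 2251 and 2789 FPKM in basophils, 1720 and 2581 FPKM in CD11c+ eosinophils, 1533 and 1549 FPKM in CD11c- eosinophils and 2704 and 2778 FPKM in natural helper cells. Naive mice had Rps27 at 3287 and 3377 FPKM in basophils, 2266 and 1661 FPKM in eosinophils and 4361 and 4814 FPKM in natural helper cells. Papain basophils overlapped with papain natural helper cells and CD11c+ eosinophils in Rps27, and the naive cell types did not overlap.

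Rps28, also of the small subunit, was in papain mice at 2335 and 2354 FPKM in basophils, 1535 and 2515 FPKM in CD11c+ eosinophils, 1280 and 1490 FPKM in CD11c- eosinophils and 2933 and 3451 FPKM in natural helper cells. Its values in naive mice were 2348 and 2128 FPKM in basophils, 1239 and 998 FPKM in eosinophils and 3746 and 4213 FPKM in natural helper cells. CD11c+ library 2 was the 1 eosinophil library to pass the basophils in Rps28. Rps9, the homologue of bacterial S4, was the 1 of these 6 genes in which naive eosinophils overlapped with naive basophils. In papain mice it was at 1586 and 2295 FPKM in basophils, 1326 and 1416 FPKM in CD11c+ eosinophils, 1304 and 1464 FPKM in CD11c- eosinophils and 2495 and 2720 FPKM in natural helper cells. Naive mice had Rps9 at 2374 and 2264 FPKM in basophils, 2360 and 1703 FPKM in eosinophils and 3023 and 4056 FPKM in natural helper cells. Rpl41, the shortest ribosomal protein, was in papain mice at 2123 and 2254 FPKM in basophils, 1342 and 1810 FPKM in CD11c+ eosinophils, 1003 and 1352 FPKM in CD11c- eosinophils and 2500 and 3053 FPKM in natural helper cells. Its values in naive mice were 1523 and 1380 FPKM in basophils, 1373 and 888 FPKM in eosinophils and 2376 and 3868 FPKM in natural helper cells.

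At the low end, Rpl10l, a retrogene of Rpl10 known from testis, was listed at 0 in every library and was not tested, which left 83 members in the tests. Rpl39l, also known from testis, reached 4 FPKM at most and the muscle gene Rpl3l 13 FPKM at most.

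A pyrimidine run lay near the annotated start of many of these genes. RefSeq promoters of build GRCm38.p6, another build than that of the expression table, were matched for 62 members, and a run of 7 or more C or T within 15 bases before and 15 bases after an annotated start was found for 34 of them (54.8%), against 21.3% of 27025 genes. CCGGAAG, the core of an ETS family motif, stood on either strand of the 300-base promoter in 25 members (40.3%), against 9.93% of all genes. The windows of 5 of the 6 most abundant genes, those with an entry, and of Rpl12, the member with the largest difference between naive cell types, are given 5' to 3' on the gene's strand, with the longest pyrimidine run in capitals and the annotated start at base 16.
Rpl38 (chr11:114668565-114668594, plus strand): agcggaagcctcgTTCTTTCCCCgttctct
Rps27 (chr3:90213634-90213663, minus strand): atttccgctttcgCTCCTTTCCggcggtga
Rps9 (chr7:3704026-3704055, plus strand): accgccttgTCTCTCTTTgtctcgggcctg
Rps28 (chr17:33824548-33824577, minus strand): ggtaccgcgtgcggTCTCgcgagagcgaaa
Rpl41 (chr10:128549154-128549183, minus strand): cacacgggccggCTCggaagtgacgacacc
Rpl12 (chr2:32961697-32961726, plus strand): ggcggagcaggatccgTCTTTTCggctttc
The run spans the start in Rpl38, Rps27 and Rps9 and begins just after it in Rpl12, and Rps28 and Rpl41 have no run of 7 in this window.

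Naive eosinophils had much less ribosomal protein RNA than naive natural helper cells. Of 83 members, 77 were lower in naive eosinophils (limma adjusted p under 0.05) and none was higher, with 16.5% of all genes tested called lower, 11.6% called higher and 28.1% called in either direction. The median log2 difference was -1.86 for the members and -0.21 for all genes tested. In 79 members both eosinophil libraries lay below both natural helper cell libraries, which held for 35.0% of all genes. The 6 members without a call were Rpl39l, Rps27a, Rps4y2, Rps27l, Rpl7l1 and Rpl3l.

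The members did not differ by the same amount. The largest difference was that of Rpl12, a protein at the base of the stalk that recruits elongation factors. It stood at 210 and 202 FPKM in naive eosinophils, against 1881 and 2384 FPKM in naive natural helper cells (log2 difference -3.36, SE 0.37, limma adjusted p = 0.000234). Rpl36a, an X-linked large subunit gene, stood at 178 and 167 FPKM in naive eosinophils, against 1311 and 2326 FPKM in naive natural helper cells (-3.33, SE 0.30, adjusted p = 8.29e-05). Rpl3, which lies close to the peptidyl transferase centre, stood at 56 and 75 FPKM in naive eosinophils, against 486 and 679 FPKM in naive natural helper cells (-3.13, SE 0.39, adjusted p = 0.000489). Rps20, the homologue of bacterial S10, stood at 276 and 275 FPKM in naive eosinophils, against 1898 and 2920 FPKM in naive natural helper cells (-3.09, SE 0.33, adjusted p = 0.000198). These 4 genes lay well past the member median, and no library of one cell type reached the range of the other. Rps9 was the called member with the smallest difference. It stood at 2360 and 1703 FPKM in naive eosinophils, against 3023 and 4056 FPKM in naive natural helper cells (-0.80, SE 0.25, adjusted p = 0.0433). Rps27a, which encodes ubiquitin fused to a small subunit protein, stood at 785 and 605 FPKM in naive eosinophils, against 887 and 1299 FPKM in naive natural helper cells (-0.64, SE 0.23, adjusted p = 0.0679).

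Naive basophils lay between the other cell types. Against naive natural helper cells, 66 of 83 members were lower in naive basophils and none was higher, while 13.6% of all genes tested were called lower. The members' median fold was 0.501, and the median log2 difference of all genes was -0.34. In 76 members both basophil libraries were below both natural helper cell libraries, against 34.7% of all genes. The largest differences were again those of Rpl12, Rpl3, Rps20 and Rpl36a. Rpl12 stood at 596 and 515 FPKM in naive basophils, against 1881 and 2384 FPKM in naive natural helper cells (-1.93, SE 0.37, adjusted p = 0.00708). Rpl3 stood at 212 and 124 FPKM in naive basophils, against 486 and 679 FPKM in naive natural helper cells (-1.82, SE 0.39, adjusted p = 0.0130). The comparison shares its natural helper cell libraries with the one of eosinophils. Rps20 gave -1.80 (SE 0.33, adjusted p = 0.00579) and Rpl36a -1.70 (SE 0.30, adjusted p = 0.00482). Rps23, a protein of the decoding centre, was one of the members without a call, at 1234 and 1217 FPKM in naive basophils, against 1052 and 1228 FPKM in naive natural helper cells (0.11, SE 0.25, adjusted p = 0.827). The count of 66 was 11 with libraries scaled by median ratios and 37 with quantile-normalized values. It was 7 without naive basophil library 2, 13 without naive natural helper cell library 2 and 2 when the fit held the compared groups alone.

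Against naive eosinophils, 46 of 83 members were higher in naive basophils and none was lower, with 5.30% of all genes tested called higher. The member median was 0.88 and that of all genes 0.00 on the log2 scale. In 73 members both basophil libraries lay above both eosinophil libraries, against 15.2% of all genes. Rps23 led, at 1234 and 1217 FPKM in naive basophils, against 438 and 341 FPKM in naive eosinophils (1.66, SE 0.25, adjusted p = 0.00281). Rpl36a stood at 569 and 507 FPKM in naive basophils, against 178 and 167 FPKM in naive eosinophils (1.63, SE 0.30, adjusted p = 0.00710). Rps19, mutated in human Diamond-Blackfan anaemia, stood at 546 and 512 FPKM in naive basophils, against 200 and 158 FPKM in naive eosinophils (1.57, SE 0.25, adjusted p = 0.00377). Rpl39, a small protein of the peptide exit tunnel, stood at 1602 and 1546 FPKM in naive basophils, against 575 and 501 FPKM in naive eosinophils (1.55, SE 0.31, adjusted p = 0.0115). For these 4 genes the gap between the cell types exceeded that between replicates. The count of 46 was between 9 and 17 without any 1 of the 4 libraries compared and 12, of which 11 higher and 1 lower, when the fit held these groups alone.

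**Figure D2:**
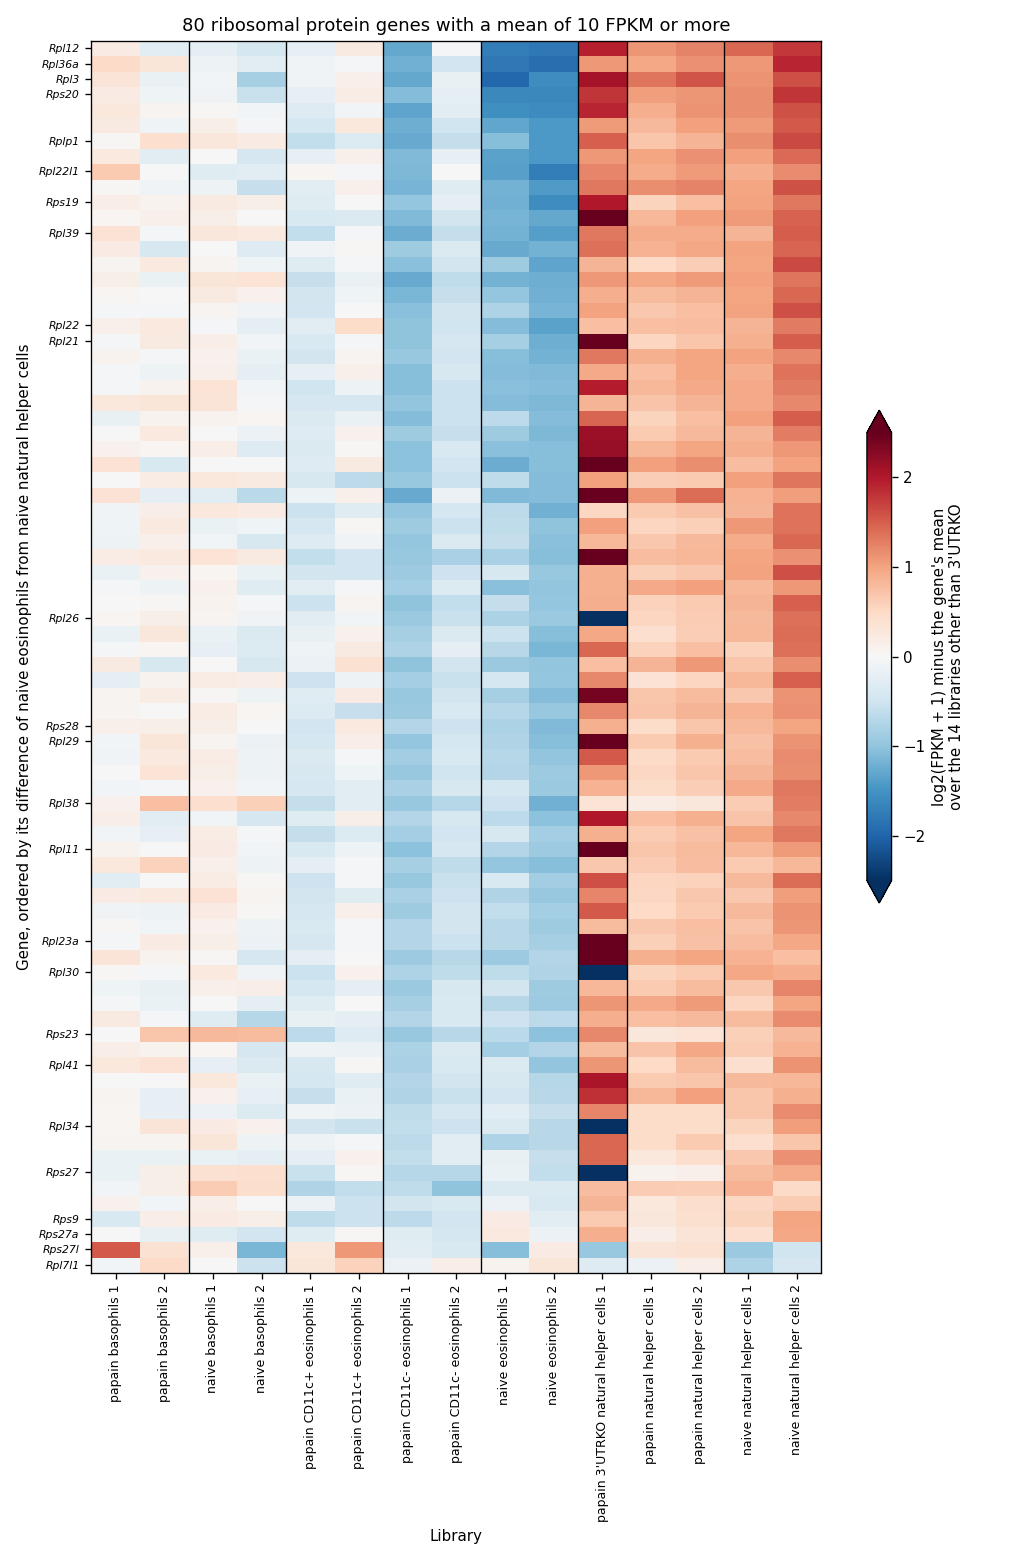
Level of 80 ribosomal protein genes (rows) in the 15 libraries (columns, papain left of naive), as log2(FPKM + 1) minus the gene's mean over the 14 libraries other than 3'UTRKO; rows run from the most negative difference of naive eosinophils from naive natural helper cells (Rpl12, -3.36) at the top to the most positive (Rpl7l1, 0.79). Labels mark some rows that the text names, and most rows are blue in naive and CD11c- papain eosinophils and red in natural helper cells, and the 3'UTRKO column alone holds both extremes, with Rpl26, Rps27, Rpl34 and Rpl30 dark blue.

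Papain CD11c+ eosinophils had more ribosomal protein RNA than naive eosinophils. By the labels the naive eosinophils were not divided by CD11c. When either papain gate is compared with them, papain and the gate cannot be told apart. Of 83 members, 22 were higher in papain CD11c+ than in naive eosinophils and none was lower, with 9.93% of all genes tested called higher and 12.1% in either direction. The member median was 0.68 on the log2 scale, and the median of all genes was 0.34. By value 78 members were higher, and in 63 both CD11c+ libraries lay above both naive ones, against 34.0% of all genes. The 22 comprised 14 large and 8 small subunit genes, among them Rpl22 and Rpl22l1, Rpl14, Rpl10a, Rps18, Rps19, Rpsa and Rps4x. Rpl3 stood at 208 and 243 FPKM in papain CD11c+ eosinophils, against 56 and 75 FPKM in naive eosinophils (1.78, SE 0.39, adjusted p = 0.0238). Rpl36a stood at 581 and 607 FPKM in papain CD11c+ eosinophils, against 178 and 167 FPKM in naive eosinophils (1.78, SE 0.30, adjusted p = 0.00784). Rpl12 stood at 604 and 810 FPKM in papain CD11c+ eosinophils, against 210 and 202 FPKM in naive eosinophils (1.76, SE 0.37, adjusted p = 0.0185). Rps20 stood at 737 and 968 FPKM in papain CD11c+ eosinophils, against 276 and 275 FPKM in naive eosinophils (1.61, SE 0.33, adjusted p = 0.0167). These are the members that also set naive eosinophils furthest from natural helper cells, in a comparison that shares the naive eosinophil libraries. Rps9 went the other way by value. It was at 1326 and 1416 FPKM in papain CD11c+ eosinophils and 2360 and 1703 FPKM in naive eosinophils (-0.55, SE 0.25, adjusted p = 0.195). The count of 22 was 4 after median-ratio scaling, where the member median was 0.29, and 4 when the fit held the compared groups alone. It was 0 without naive eosinophil library 1, 1 without naive library 2 and 1 without CD11c+ library 2.

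CD11c- papain eosinophils stayed near naive eosinophils. No member was called against naive eosinophils by limma, 9 had an unadjusted p under 0.05, and 2.24% of all genes tested were called. The members' median was 0.20 and that of all genes 0.21. The 2 CD11c- libraries differed from each other: 77 of 83 members were higher in library 2 than in library 1, by a median of 0.44, while the median over all genes was 0.00. Rpl12 shows the gap, at 287 and 675 FPKM in papain CD11c- eosinophils, against 210 and 202 FPKM in naive eosinophils (1.09, SE 0.37, adjusted p = 0.208). The member median was 0.43 without CD11c- library 1, -0.02 without library 2 and -0.02 after median-ratio scaling.

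Between the gates, 81 of 83 members were higher by value in CD11c+ than in CD11c- papain eosinophils, with a median of 0.48, against 0.00 for all genes. That median was 0.17 with small RNA rows left out and totals made equal, 0.27 after quantile normalization, 0.24 without CD11c- library 1 and 0.74 without CD11c- library 2. No member was called by limma, 17 had an unadjusted p under 0.05, and 0.0561% of all genes tested, 8 genes, were called. In 59 members both CD11c+ libraries lay above both CD11c- libraries, against 20.8% of all genes, and in 0 below, against 9.01%. Rps26 was at 907 and 1315 FPKM in CD11c+, against 499 and 733 FPKM in CD11c- papain eosinophils (0.85, SE 0.31, adjusted p = 0.515). Rpl36a was at 581 and 607 FPKM in CD11c+, against 270 and 444 FPKM in CD11c- papain eosinophils (0.78, SE 0.30, adjusted p = 0.515). Markers of other cells differed between these groups. The 7 neutrophil markers summed to 12312 and 14123 FPKM in CD11c+ papain eosinophils, 9211 and 6429 FPKM in CD11c- papain eosinophils and 16536 and 8767 FPKM in naive eosinophils. These markers did not move together. Retnlg was at 5097 and 4662 FPKM in CD11c+, against 13759 and 7600 FPKM in naive eosinophils. S100a8, S100a9 and Cxcr2 were higher in CD11c+, S100a8 at 3975 and 5489 FPKM, against 1417 and 560 FPKM in naive eosinophils. The 6 alveolar macrophage markers summed to 1069 and 1271 FPKM in CD11c+, 396 and 298 FPKM in CD11c- and 166 and 202 FPKM in naive eosinophils. The 12 epithelial markers summed to 10111 and 8501 FPKM in CD11c+, 6689 and 9134 FPKM in CD11c- and 726 and 1819 FPKM in naive eosinophils. The 10 eosinophil markers summed to 1241 and 1286 FPKM in CD11c+, 985 and 973 FPKM in CD11c- and 729 and 2935 FPKM in naive eosinophils. The 8 T cell markers summed to 95 and 123 FPKM in CD11c+, 19 and 99 FPKM in CD11c- and 3 and 1 FPKM in naive eosinophils, and the 7 fibroblast markers to 545 and 498 FPKM in CD11c+, 359 and 227 FPKM in CD11c- and 1 and 3 FPKM in naive eosinophils. The 12 natural helper cell markers summed to 197 and 238 FPKM in CD11c+, 175 and 189 FPKM in CD11c- and 43 and 94 FPKM in naive eosinophils, and the 9 B cell markers to 163 and 184 FPKM in CD11c+, 104 and 271 FPKM in CD11c- and 58 and 46 FPKM in naive eosinophils. The CD11c- library with more ribosomal protein RNA, library 2, had higher sums of T cell, B cell, epithelial and natural helper cell markers. The epithelial sums followed Scgb1a1, at 5044 and 8407 FPKM in CD11c- libraries 1 and 2. The median epithelial marker was lower in library 2, at 53.5 and 20 FPKM in libraries 1 and 2. Library 2 had lower sums of neutrophil, alveolar macrophage and fibroblast markers. Among the neutrophil markers Retnlg, at 7163 and 3449 FPKM in libraries 1 and 2, and Ltf were lower in library 2. S100a8, S100a9, Mmp8, Camp and Cxcr2 were higher there. The eosinophil sums were close, and the median eosinophil marker was at 72.5 and 85.5 FPKM. The part of these markers in the ribosomal protein levels was not tested.

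Papain basophils and naive basophils had close values of these genes on the deposited scale, while 26.0% of all genes tested were called between them. No member was called by limma and 5 had an unadjusted p under 0.05. Over the 83 members the median difference was 0.05, against 0.50 for all genes, so the members lay 0.45 below the typical gene. In 19 members both papain libraries lay above both naive libraries, against 37.5% of all genes, and in 12 below, against 8.91%. The direction of the member median depended on the scale: it was -0.46 after median-ratio scaling, -0.29 with small RNA rows left out and totals made equal, and -0.10 after quantile normalization. Median-ratio scaling also moved the median of all genes, to 0.11. Members called numbered 2 without naive library 1, 2 without papain library 2 and 4, all lower, with small RNA rows left out. The 10 basophil markers summed to 602 and 1829 FPKM in papain basophils, against 5869 and 5030 FPKM in naive basophils. The 12 epithelial markers summed to 20907 and 35571 FPKM in papain basophils, against 6700 and 8779 FPKM in naive basophils, and the 7 neutrophil markers to 3180 and 7484 FPKM in papain basophils, against 263 and 532 FPKM in naive basophils. The 7 fibroblast markers summed to 723 and 215 FPKM in papain basophils, against 10 and 3 FPKM in naive basophils. The 6 alveolar macrophage markers summed to 11527 and 285 FPKM in papain basophils, against 51 and 33 FPKM in naive basophils, and the 8 endothelial markers to 123 and 328 FPKM in papain basophils, against 51 and 29 FPKM in naive basophils. The part of these markers was not tested.

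Papain natural helper cells had mostly lower ribosomal protein values than naive ones, with no call. No member was called by limma, 11 had an unadjusted p under 0.05, and 0.786% of all genes tested were called. By value 71 of 83 members were lower in papain natural helper cells, with a median of -0.31, while the median of all genes was 0.09. In 49 members both papain libraries lay below both naive libraries, against 8.47% of all genes. Rps27 was at 2704 and 2778 FPKM in papain natural helper cells, against 4361 and 4814 FPKM in naive natural helper cells (-0.74, SE 0.24, adjusted p = 0.275). Rps24 was at 1553 and 1699 FPKM in papain natural helper cells, against 2199 and 3472 FPKM in naive natural helper cells (-0.77, SE 0.28, adjusted p = 0.336). Rplp0, the scaffold of the stalk, was among the 12 that were higher by value, at 1249 and 1360 FPKM in papain natural helper cells, against 947 and 1289 FPKM in naive natural helper cells (0.24, SE 0.22, adjusted p = 0.794). The naive libraries were themselves apart, with 78 of 83 members higher in naive library 2 than in library 1, by a median of 0.42. The papain libraries were closer, at a median of 0.13. It was -0.50 for the median member without naive library 1 and -0.11 without naive library 2, and it was -0.61 under median-ratio scaling and -0.07 under quantile normalization. Small RNA rows took 14.11% and 11.68% of the papain libraries, against 26.02% and 23.10% of the naive ones. The 8 T cell markers summed to 170 and 207 FPKM in papain natural helper cells, against 283 and 295 FPKM in naive ones, and the 6 alveolar macrophage markers to 171 and 962 FPKM in papain natural helper cells, against 106 and 63 FPKM in naive ones. The 12 natural helper cell markers summed to 5086 and 5036 FPKM in papain natural helper cells, against 2163 and 4208 FPKM in naive ones. The part of small RNA rows and markers in the ribosomal protein levels was not tested.

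**Figure D3:**
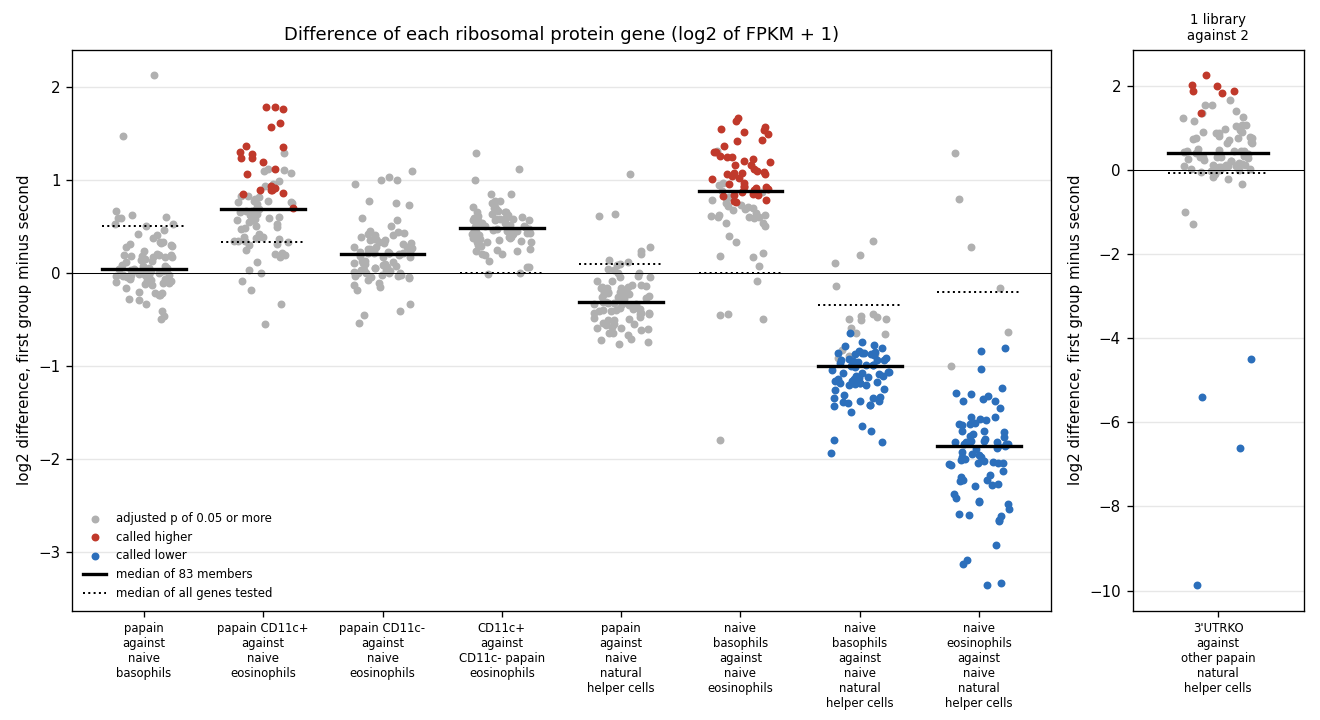
Log2 difference, first group minus second, of each of the 83 ribosomal protein genes tested, in 8 comparisons (left panel) and for the 3'UTRKO library (right panel, own axis); red and blue points were called by limma at an adjusted p under 0.05. Solid bars are medians of the 83 members and dotted bars medians of all genes tested. The members lie furthest from 0 in naive eosinophils against naive natural helper cells (median -1.86), and Rpl26 at the bottom of the right panel is listed at 0 in the 3'UTRKO library, so its place depends on the pseudocount of 1.

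The papain responses were also compared with each other in the same fit. For eosinophils a response is that of a CD11c gate of papain mice against undivided naive eosinophils. The response of basophils minus that of natural helper cells gave no member call in limma, with 4 at an unadjusted p under 0.05 and 6.75% of all genes tested called. The response of CD11c- eosinophils minus that of natural helper cells gave none either, with 10 at an unadjusted p under 0.05 and 1.21% of all genes called. Both comparisons share the natural helper cell libraries. The member medians were 0.38 for basophils, -0.05 after quantile normalization, and 0.49 for CD11c- eosinophils, and 1 member was called for basophils without papain basophil library 2. The response of CD11c+ eosinophils was compared after its values had been seen. Minus the response of natural helper cells it gave 2 members called higher, Rpl36a and Rps19, with 1.98% of all genes called higher and 3.19% in either direction. The median over the 83 members was 0.96, 61 members had an unadjusted p under 0.05, and 79 were above 0. Rpl36a was at 581 and 607 FPKM in papain CD11c+ eosinophils and 178 and 167 FPKM in naive eosinophils, and at 1209 and 1366 FPKM in papain natural helper cells and 1311 and 2326 FPKM in naive ones (difference of responses 2.22, SE 0.42, adjusted p = 0.0282). Rps19 was at 378 and 465 FPKM in papain CD11c+ eosinophils and 200 and 158 FPKM in naive eosinophils, and at 680 and 785 FPKM in papain natural helper cells and 935 and 1153 FPKM in naive ones (1.74, SE 0.36, adjusted p = 0.0365). No member was called without naive eosinophil library 1 or 2, CD11c+ library 2, naive natural helper cell library 2 or papain natural helper cell library 1 or 2, and 8 were called without CD11c+ library 1. Minus the response of basophils, the CD11c+ response had a member median of 0.60, no member called by limma, 21 at an unadjusted p under 0.05, and 2.52% of all genes called. Without papain basophil library 1, 2 members were called.

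Members with and without a pyrimidine run near the start had close medians in these comparisons. Among members that averaged 10 FPKM or more and had a matched promoter, 33 had a run of 7 or more and 26 had none. Their median log2 differences were -1.96 and -1.83 in naive eosinophils against naive natural helper cells. In papain CD11c+ against naive eosinophils the medians were 0.76 with the run and 0.66 without. Members called higher there numbered 12 of 33 and 7 of 26, beside 9.93% of all genes. These values are a description of annotated starts, with no test.

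Several ribosomal proteins have a paralogue that can take their place in the subunit. Rps27l, a paralogue of Rps27 induced by p53 in human cells, kept a low level that varied apart from Rps27. It was at 294 and 132 FPKM in papain basophils, against 110 and 45 FPKM in naive basophils (log2 difference 1.47, SE 0.56, adjusted p = 0.0858). In papain natural helper cells it was at 126 and 132 FPKM, against 53 and 71 FPKM in naive natural helper cells (1.06, SE 0.56, adjusted p = 0.542). The ratio of Rps27l to Rps27 was 0.0466 and 0.0475 in papain natural helper cells, against 0.0122 and 0.0147 in naive ones, and neither Rps27l difference passed the threshold. Rpl22 is needed for alpha-beta T cells in mice and its loss raises Rpl22l1 there. Both genes were called higher in papain CD11c+ than in naive eosinophils: Rpl22l1 was at 168 and 159 FPKM in papain CD11c+ eosinophils, against 62 and 48 FPKM in naive eosinophils (1.57, SE 0.34, adjusted p = 0.0231). Rpl22 was at 99 and 165 FPKM in papain CD11c+ eosinophils, against 56 and 47 FPKM in naive eosinophils (1.3, SE 0.27, adjusted p = 0.0188). The FPKM ratio of Rpl22l1 to Rpl22 lay between 0.964 and 1.94 in the 15 libraries, with no order of cell types.

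Rpl36al, an autosomal copy of X-linked Rpl36a whose symbol lies outside the rule for members, differed less between cell types than its partner. It was at 201 and 196 FPKM in naive eosinophils, against 508 and 649 FPKM in naive natural helper cells (-1.53, SE 0.25, adjusted p = 0.00224), where Rpl36a differed by -3.33. The ratio of Rpl36al to Rpl36a was 1.13 and 1.17 in naive eosinophils, against 0.387 and 0.279 in naive natural helper cells. In papain CD11c+ eosinophils it was 0.503 and 0.603, so these libraries lay below naive eosinophils and near papain basophils at 0.653 and 0.502. Rpl7l1 was one of the 3 members with a higher value in naive eosinophils than in naive natural helper cells, at 19 and 22 FPKM in eosinophils and 10 and 13 FPKM in natural helper cells (0.79, SE 0.27, adjusted p = 0.0576). Rpl3l, the paralogue of Rpl3, was at 3 and 2 FPKM in naive eosinophils and 0 and 1 FPKM in naive natural helper cells. Of the stalk pair, the ratio of Rplp2 to Rplp1 was 1.09 and 0.983 in naive eosinophils, against 0.605 and 0.636 in naive natural helper cells, and it was 0.897 to 1.03 in the 4 papain eosinophil libraries.

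**Figure D4:**
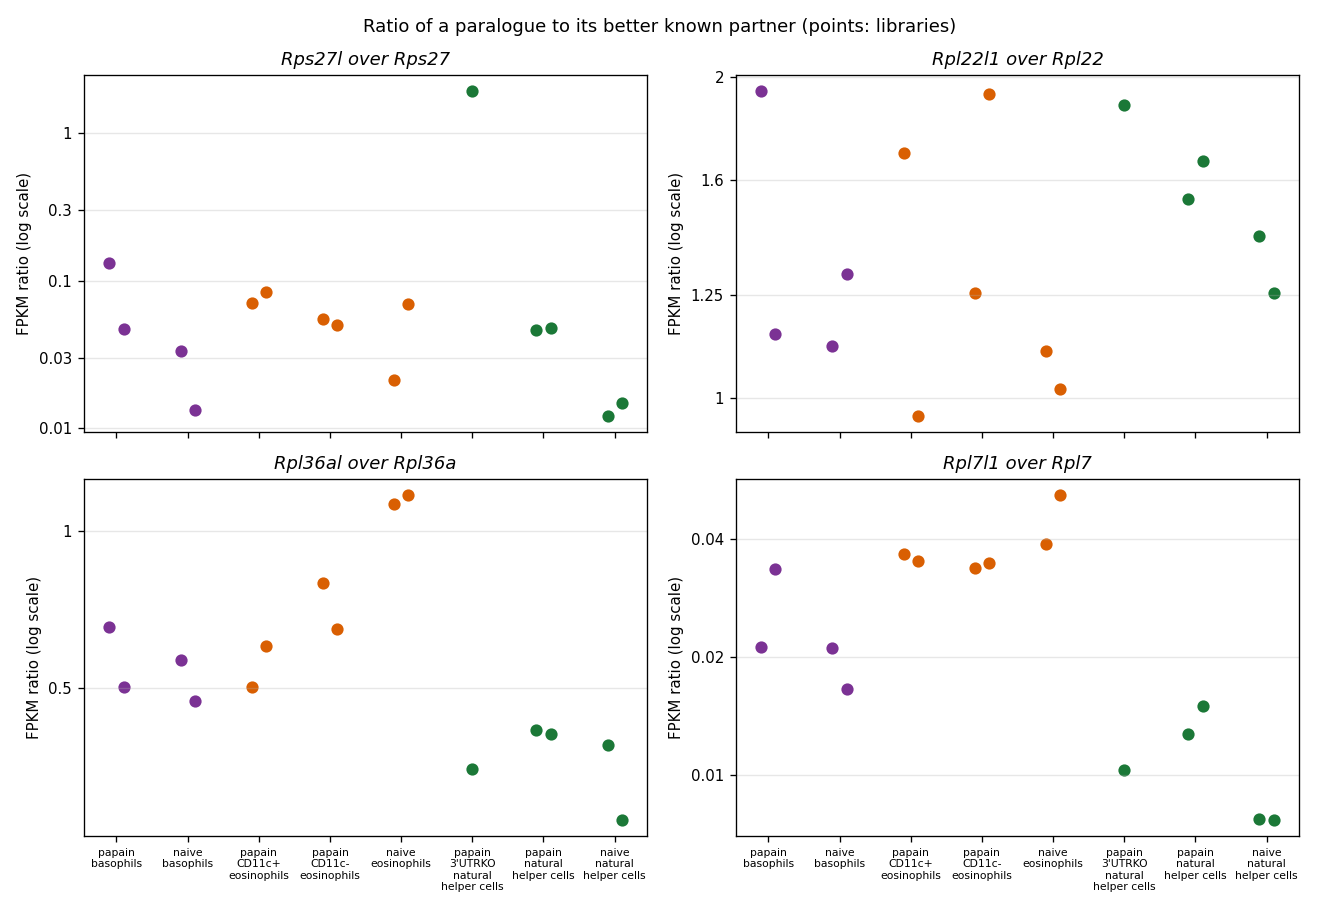
FPKM of a paralogue divided by that of its partner in each library (points, log axes), for Rps27l over Rps27, Rpl22l1 over Rpl22, Rpl36al over Rpl36a and Rpl7l1 over Rpl7. Rpl36al exceeds Rpl36a in both naive eosinophil libraries (1.13 and 1.17) and in no other, and Rps27l over Rps27 reaches 1.93 in the 3'UTRKO library, where Rps27 is at 27 FPKM.

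Ribosomal proteins with other names were also mostly lower in naive eosinophils. Gnb2l1, the small subunit scaffold also called RACK1, was at 208 and 190 FPKM in naive eosinophils, against 787 and 1139 FPKM in naive natural helper cells (-2.25, SE 0.23, adjusted p = 0.000187). It was called higher in papain CD11c+ eosinophils, at 373 and 434 FPKM, against 208 and 190 FPKM in naive eosinophils (1.01, SE 0.23, adjusted p = 0.0270). Of 4 such genes in the table, 3 were called lower in naive eosinophils than in naive natural helper cells, beside 16.5% of all genes. Fau, the source of small subunit protein S30, was not called, at 1336 and 825 FPKM in naive eosinophils and 1045 and 1404 FPKM in naive natural helper cells.

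Genes that work with the ribosome were less uniform. Of 39 translation factors tested, 17 were lower and 2 higher in naive eosinophils than in naive natural helper cells, beside 16.5% and 11.6% of all genes, with a median of -0.51, against -0.21 for all genes. Eef1a1, which brings aminoacyl-tRNA to the ribosome, was at 927 and 1169 FPKM in naive eosinophils, against 4634 and 5471 FPKM in naive natural helper cells (-2.27, SE 0.24, adjusted p = 0.000207). Of the same list, 7 were called higher and 1 lower in naive basophils than in naive eosinophils, beside 5.30% of all genes called higher. The lower one was Eif5a, a factor in peptide bond formation, at 160 and 140 FPKM in naive basophils, against 553 and 440 FPKM in naive eosinophils (-1.71, SE 0.20, adjusted p = 0.000740). In papain CD11c+ against naive eosinophils, 10 of the 39 were called higher and none lower, beside 9.93% of all genes called higher. They included Eif4e, the cap-binding protein, at 47 and 47 FPKM in papain CD11c+ eosinophils, against 8 and 13 FPKM in naive eosinophils (2.10, SE 0.28, adjusted p = 0.00274). In papain basophils 10 were called higher and 1 lower than in naive basophils, close to the 22.1% of all genes called higher, and their median of 0.50 was that of all genes.

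Of 60 ribosome biogenesis genes tested, 17 were higher and none lower in papain CD11c+ than in naive eosinophils, beside 9.93% of all genes called higher, with a median of 0.87, against 0.34 for all genes. Npm1, a nucleolar chaperone, was at 233 and 325 FPKM in papain CD11c+ eosinophils, against 38 and 62 FPKM in naive eosinophils (2.48, SE 0.41, adjusted p = 0.00761). In papain against naive basophils 20 of the 60 were higher and 1 lower, beside 22.1% of all genes called higher, with a median of 0.90, against 0.50 for all genes and 0.05 for the cytosolic ribosomal proteins. Nop16, a nucleolar protein, was at 10 and 20 FPKM in papain basophils, against 3 and 2 FPKM in naive basophils (2.13, SE 0.46, adjusted p = 0.0118). In papain against naive natural helper cells none of the 60 was called, beside 0.786% of all genes. Their median was 0.31, where the members' was -0.31. Of 75 mitochondrial ribosomal protein genes, 12 were lower and 1 higher in naive eosinophils than in naive natural helper cells, with a median of -0.66, against -1.86 for the cytosolic genes and -0.21 for all genes. The 12 are a share close to the 16.5% of all genes called lower. In papain basophils 19 of the 75 were higher and none lower than in naive basophils, a share close to the 22.1% of all genes.

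Of 23 genes of the mTOR and MYC pathways that act on ribosome production, 2 were called higher in papain CD11c+ than in naive eosinophils and none lower, no more often than the 9.93% of all genes. Myc, a transcription factor that drives ribosome synthesis, was at 29 and 21 FPKM in papain CD11c+ eosinophils, against 4 and 8 FPKM in naive eosinophils (1.94, SE 0.41, adjusted p = 0.0195). Rheb, the GTPase that activates mTOR complex 1, was at 83 and 105 FPKM in papain CD11c+ eosinophils, against 36 and 34 FPKM in naive eosinophils (1.39, SE 0.16, adjusted p = 0.00163). In naive eosinophils Myc was at 4 and 8 FPKM, against 95 and 76 FPKM in naive natural helper cells (-3.68, SE 0.41, adjusted p = 0.000255). Mycn and Pdcd4 of the same list were also called lower there, beside 16.5% of all genes. Other genes of the list went the other way. Akt1 was at 92 and 103 FPKM in naive eosinophils, against 24 and 19 FPKM in naive natural helper cells. Mxd1 was at 130 and 88 FPKM, against 27 and 38 FPKM, and Max at 56 and 66 FPKM, against 18 and 25 FPKM. Noncoding hosts of small nucleolar RNAs have TOP starts as well. Of 7 tested, 5 were lower in naive eosinophils than in naive natural helper cells, beside 16.5% of all genes, and 4 were higher in papain CD11c+ than in naive eosinophils, beside 9.93% of all genes. Snhg1 was at 89 and 105 FPKM in papain CD11c+ eosinophils, against 18 and 21 FPKM in naive eosinophils (2.26, SE 0.36, adjusted p = 0.00675). In papain against naive basophils 3 of the 7 were called higher, beside 22.1% of all genes. No cytosolic ribosomal protein gene was called there, and the members' median was 0.05. In naive basophils 5 of the 7 were lower than in naive natural helper cells, as were 66 of 83 members and 13.6% of all genes. Against naive eosinophils none of the 7 was called in naive basophils, where 46 of 83 members and 5.30% of all genes were higher.

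The 3'UTRKO library had levels of its ribosomal protein genes unlike those of the other libraries. Across the 80 members with a mean of 10 FPKM or more, the Pearson correlation of log2(FPKM + 1) between the 3'UTRKO library and any other was 0.363 to 0.512, and between any 2 of the other 14 libraries 0.879 to 0.999. The points share members and transcript lengths, and the values are a description. Of the 80, 18 were over 2-fold above and 5 over 2-fold below the other papain natural helper cells, and none differed by 2-fold between the 2 papain libraries. The differences had an SD of 1.76, against 0.0726 between the papain replicates. This SD and the correlations include 4 members far below the others, described in the next paragraph. Among these is Rpl26, whose difference depends on the pseudocount, and values without the 4 were not computed. Limma called 7 of 83 members higher and 4 lower, with 0.210% and 0.358% of all genes tested called higher and lower and 0.568% in either direction. With 1 library this test assumes that it would vary like the other groups. The member median was 0.39 and that of all genes -0.07. Members called numbered 7 without papain library 1 and 7 without papain library 2, and the member median was 0.02 after quantile normalization.

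The 4 lowered members were far below their values in every other library. Rpl26, a protein at the exit tunnel, was listed at 0 FPKM in the 3'UTRKO library, against 901 and 969 FPKM in other papain natural helper cells (adjusted p = 3.06e-07). Rps27 was at 27 FPKM in the 3'UTRKO library, against 2704 and 2778 FPKM in the others (-6.61, SE 0.30, adjusted p = 1.69e-05). Rpl34 was at 28 FPKM in the 3'UTRKO library, against 1231 and 1222 FPKM in the others (-5.40, SE 0.25, adjusted p = 1.69e-05). Rpl30, which binds its own transcript in yeast, was at 42 FPKM in the 3'UTRKO library, against 941 and 1010 FPKM in the others (-4.50, SE 0.26, adjusted p = 7.85e-05). In the 12 libraries of the other groups these 4 genes were at 328 FPKM or more. Of the other abundant members, Rpl38 was at 3293, Rplp1 at 5438, Rps28 at 3946, Rps9 at 3234 and Rpl41 at 3795 FPKM in the 3'UTRKO library, each above both other papain libraries. The 7 raised members were Rpl21, Rpl23a, Rpl29, Rpl11, Rpl31, Rpl17 and Rpl27. Rpl21 was at 621 FPKM in the 3'UTRKO library, against 123 and 137 FPKM in the others (2.25, SE 0.33, adjusted p = 0.0218). Rpl23a, at the exit tunnel near the signal recognition particle, was at 2814 FPKM in the 3'UTRKO library, against 665 and 725 FPKM in the others (2.02, SE 0.23, adjusted p = 0.00641). Rpl29 was at 810 FPKM in the 3'UTRKO library, against 188 and 220 FPKM in the others (1.99, SE 0.34, adjusted p = 0.0462). Rpl11, which with Rpl5 and 5S RNA can bind Mdm2, was at 2292 FPKM in the 3'UTRKO library, against 596 and 645 FPKM in the others (1.88, SE 0.27, adjusted p = 0.0178).

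Ribosomal protein genes have left many processed copies in the mouse genome, and short reads from a stretch that a gene shares with such a copy cannot be assigned to one of them. Of the 83 members matched in GENCODE M21 (build GRCm38), 80 had a mean of 10 FPKM or more and a median of 5 other genes at 95% identity or more over at least 80% of the coding sequence. The largest number was 57, for Rpl21. These 80 members had 591 such copies in all, 564 of them annotated as pseudogenes. The median difference of the 3'UTRKO library from the other papain natural helper cells was 0.14 for 17 members with 0 to 2 copies, 0.18 for 24 with 3 to 5, 0.63 for 23 with 6 to 10 and 1.33 for 16 with more than 10. Members over 2-fold above numbered 0, 3, 5 and 10 in these classes, and those over 2-fold below 1, 2, 1 and 1. Spearman's rho of the number of copies with the 3'UTRKO difference was 0.50 over the 80 members, and with the difference between the 2 papain replicates 0.15. With the members' mean FPKM over the other 14 libraries it was -0.27. Members share copies of like age and length, and the values carry no test.

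Stretches of 30 bases show how little of the coding sequence of these genes is their own. Untranslated regions were left out, and the read length of the libraries was not used. The median member had 2.98% of its 30-base coding windows in no other annotated gene. The window that most other genes share is given for 3 raised and 3 lowered members. They are written 5' to 3' on the coding strand, in lower case, with the number of other genes that hold the same 30 bases after each set.
Rpl21 (chr5:146834476-146834505, plus strand): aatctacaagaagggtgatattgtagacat
Rpl29 (chr9:106431115-106431144, plus strand): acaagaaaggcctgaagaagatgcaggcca
Rpl11 (chr4:136051622-136051651, minus strand): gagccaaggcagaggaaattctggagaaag
Rpl26 (chr11:68904401-68904430, plus strand): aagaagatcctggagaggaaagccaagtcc
Rps27 (chr3:90212969-90212998, minus strand): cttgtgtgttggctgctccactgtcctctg
Rpl30 (chr15:34440574-34440603, minus strand): tgattctgatattattagaagcatgccaga
Each lies within 1 coding exon. Other genes that hold the stretch number 63 for Rpl21, 58 for Rpl29 and 8 for Rpl11 among the raised members, and 11 for Rpl26, 9 for Rps27 and 17 for Rpl30 among the lowered ones. Members without a near-identical copy were not all alike. Rpl8 was at 1538 FPKM in the 3'UTRKO library, against 1395 and 1526 FPKM in other papain natural helper cells. Rps27l was at 52 FPKM in the 3'UTRKO library, against 126 and 132 FPKM in the others (-1.29, SE 0.69, adjusted p = 0.640). How the reads of this library were assigned is not given in the sources used here, and the part of the copies in its values was not tested.

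**Figure D5:**
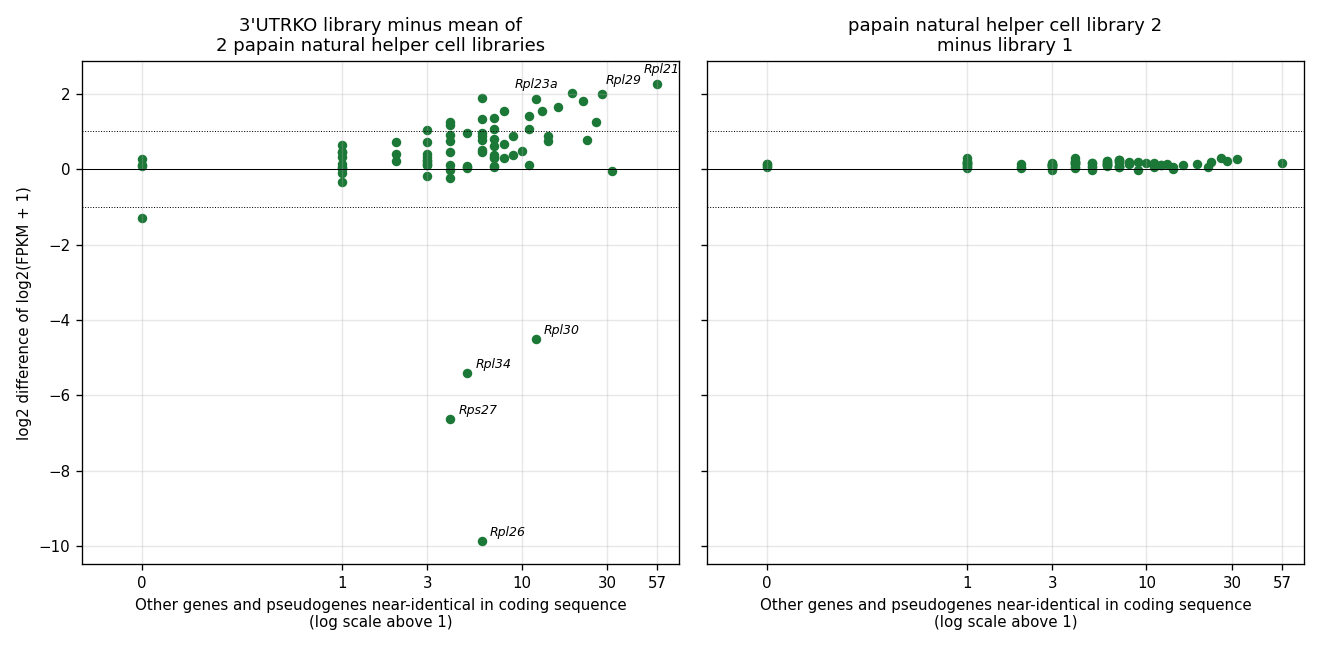
Difference of log2(FPKM + 1) of 80 ribosomal protein genes (points) against the number of other genes and pseudogenes near-identical in coding sequence (log axis above 1), for the 3'UTRKO library minus the mean of the other papain natural helper cells (left) and for the papain replicates (right); dotted lines mark 2-fold. Members over 2-fold above become more frequent with the number of copies on the left, 10 of 16 beyond 10 copies, and on the right no member passes 2-fold.

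Without the 3'UTRKO library in the fit, no count of members called in the other comparisons changed. The papain natural helper cell values above rest on the 2 libraries that do not carry the label, and natural helper cell markers summed to 3871 FPKM in the 3'UTRKO library, against 5086 and 5036 FPKM in the others.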

How the data were processed

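RNA of sorted lung cells was sequenced from poly(A) libraries (NEBNext, per the labels' protocols). The submitters' processing notes name TopHat 1.4.0, Cufflinks 1.3.0 and mm9, and the annotation is not given in the sources used here. The deposited table holds 1 score per gene and library, read here, from its values and the tool, as FPKM that the authors rounded to whole numbers. It keeps no read depth, so precision comes from the spread between replicates alone. Commas inside 1008 cells were taken out, and 3 values near 0 were set to 0.

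All 15 columns were mapped to groups by the labels. The 14257 genes (83 members) that reached 1 FPKM in 2 or more libraries were fitted as log2(FPKM + 1) in limma 3.58.1 (R 4.3.3), with 1 coefficient per group over the 15 libraries, 7 residual and 1.87 prior degrees of freedom and a variance trend. Tests were two-sided, with Benjamini-Hochberg adjustment across every gene fitted, and the script was tested on simulated data. Members and lists were chosen with earlier results of these data known, and the responses of CD11c+ eosinophils were added after their values had been seen. The design had assumed FPKM with decimals, and the whole-number values were given the same test.

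Full values are given for the 6 most abundant members, for up to 4 rises and 4 falls per comparison among called members with 10 FPKM or more in the higher group, and for paralogues; other members were named after their values were seen. Genes of the further lists are taken from up to 3 called genes per list and comparison with 5 FPKM or more. Near-identical genes were found with BLAST 2.17.0 against GENCODE M21 transcripts, where Rps3a stands as Rps3a1. Promoters come from RefSeq (GRCm38.p6). No coordinates of mm9 are given. Some genes are counted in the totals and not reported here by name. Deviations of libraries with the same replicate number correlated between -0.128 and 0.116, so the numbers were not taken to pair libraries. Alternatives were a pseudocount of 5, no filter, other scalings, small RNA rows left out, compared groups only, a replicate block and each library left out.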

Additional observations from a re-analysis of the deposited data

Results flagged for a closer look

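The share of the library in the 84 ribosomal protein genes differed in opposite ways between papain and naive libraries. The mean share of papain minus naive libraries was -2.475 percentage points in basophils and -3.825 percentage points in natural helper cells, with both papain libraries below both naive ones in each. In CD11c+ eosinophils it was 1.853 percentage points, with both papain libraries above both naive ones. In basophils the summed FPKM of the members overlapped, at 63622 and 67491 in papain and 68300 and 61820 in naive libraries, and library totals were 484597 and 570208 in papain and 441179 and 428145 FPKM in naive libraries. The difference between these changes in share was not tested. CD11c- eosinophils overlapped with naive ones.

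By the test of the difference itself, 2 of 83 members had a higher response in CD11c+ eosinophils than in natural helper cells, a share close to the 1.98% of all genes. The difference of responses was 2.22 on the log2 scale for Rpl36a and 1.74 for Rps19. This comparison was added after the values had been seen, and neither call held when naive eosinophil library 1 was left out.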

How the results depend on the processing

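No named member reversed its direction among 26 named results under 300 alternatives, and 50 lost their call, 36 of them when a library was left out. Counts are members called and medians are log2 values. With median-ratio scaling the papain basophil count was 1 and its median -0.46, the papain natural helper cell median -0.61, the CD11c- median -0.024, and CD11c+ against naive eosinophils gave 4 and 0.29. The 3'UTRKO median was 0.64, naive basophils against eosinophils 1.18, and against natural helper cells 11 and -0.60. The response medians were 0.17 for basophils, and 1 member was called for CD11c+ eosinophils, both against natural helper cells. With quantile normalization the medians were -0.066 for papain natural helper cells, 0.27 for CD11c+ against CD11c-, 0.020 for 3'UTRKO, -1.40 for naive eosinophils against natural helper cells, and -0.046, 0.30 and 0.57 for the responses of basophils, CD11c- and CD11c+ eosinophils against natural helper cells. Naive basophils against natural helper cells gave 37 and -0.66, and CD11c- gave 1. Of all genes called in papain basophils, 85.1% were higher as deposited, 63.4% with median-ratio scaling and 45.4% with quantile normalization. With small RNA rows left out, papain basophils gave 4 and -0.29, CD11c- 1, CD11c+ against naive a median of 0.43, CD11c+ against CD11c- 0.17, the basophil response 0.094, and the CD11c+ response against natural helper cells 6 and 0.75. With the compared groups alone, CD11c+ against naive gave 4, naive basophils against eosinophils 12, against natural helper cells 2, and the CD11c+ response 8. With the replicate block the CD11c+ response gave 1, and no other count moved by over 1.5 times; with numbers crossed, naive basophils against eosinophils gave 48. The cause of these changes was not tested. With each library left out, the counts and medians ran from 0 to 2 and -0.06 to 0.18 for papain basophils, 0 to 0 and -0.50 to -0.11 for papain natural helper cells, 0 to 0 and -0.022 to 0.43 for CD11c-, 0 to 24 and 0.50 to 0.83 for CD11c+ against naive, 0 to 0 and 0.24 to 0.74 for CD11c+ against CD11c-, 7 to 7 and 0.34 to 0.43 for 3'UTRKO, 9 to 46 and 0.77 to 1.00 for naive basophils against eosinophils, 7 to 66 and -1.19 to -0.82 for them against natural helper cells, and 74 to 78 and -2.10 to -1.66 for naive eosinophils against natural helper cells. For the responses they ran from 0 to 1 and 0.19 to 0.56 for basophils, 0 to 0 and 0.29 to 0.71 for CD11c- and 0 to 8 and 0.79 to 1.175 for CD11c+ eosinophils against natural helper cells, and 0 to 2 and 0.45 to 0.81 for CD11c+ eosinophils against basophils. The upper ends of 46 and 66 for naive basophils come from the fit without the 3'UTRKO library, which is in neither comparison. Without any 1 library of the compared groups, both counts were lower. Read depth is unknown, so limits set by it cannot be given.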
